A study of Homo sapiens with 8 samples.

Results

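Collagen VI and other collagens that do not form the main fibrils were followed in IHCF cells, a line of immortalized human cardiac fibroblasts, after knockdown of the translation factor EIF4G2. The 8 genes were taken from a given list: the collagen VI chains COL6A1, COL6A2 and COL6A3, the anchoring-fibril collagen COL7A1, the short-chain collagen COL8A1, and the fibril-associated collagens COL12A1, COL14A1 and COL16A1. They are 8 of the 59385 gene symbols counted, and all 8 were among the 16228 genes that passed the filter on low counts. The groups were polysomal RNA of cells infected with a lentiviral shRNA against EIF4G2 (knockdown), polysomal RNA of cells with a scramble shRNA, total RNA of the knockdown cells and total RNA of the scramble cells, with 2 libraries each. Every group went through serum starvation of at least 6 h and then 24 h of TGF-beta, so the response to TGF-beta itself was not measured. The comparisons ask which mRNAs differ in level or in polysomal share when EIF4G2 is reduced, and which are rich or poor in polysomes in either kind of cell. The labels name a single hairpin against EIF4G2 and no rescue, so what the hairpin does through EIF4G2 and what it does otherwise cannot be told apart. The 2 libraries of a group are called biological replicates, but no label says whether they are separate cultures. The p-values therefore cover only the variation among the libraries at hand, part of which may be technical.

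Collagens are secreted matrix proteins whose chains join in groups of 3 inside the endoplasmic reticulum, where ribosomes making them are bound to the membrane. Collagen VI chains form beaded microfilaments around cells, fibril-associated collagens sit on the surface of the large fibrils, and short-chain collagens build networks. Cardiac fibroblasts lay down these proteins when TGF-beta turns them into myofibroblasts. EIF4G2, also called DAP5, is a scaffold for translation initiation that resembles EIF4G1 but does not bind the cap-binding protein eIF4E. An mRNA in the polysomal fraction carries several ribosomes at once.

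The start codon is the place where initiation ends, so its surroundings are shown for 5 of the genes. Each line gives 12 bases before the start codon, the start codon ATG in capitals, and 9 bases after it, 5′ to 3′, from the GENCODE 29 transcript chosen for the gene.
COL6A2: ggtgctgccaagATGctccagggc
COL6A3: gacaaattcaaaATGaggaaacat
COL7A1: ttactgcctaggATGacgctgcgg
COL12A1: cggaggccaaggATGcggagtagg
COL16A1: ctttggaccgggATGtgggtatcc
In these sequences the third base before ATG is A in COL6A2, COL6A3, COL7A1 and COL12A1 and G in COL16A1. A purine stood there in 7 of the 7 members read, as in 86.0% of 12507 tested coding genes. G directly after ATG was present in 1 of those 7 members, COL8A1, against 52.8% of the coding genes. An ATG upstream of the start codon occurred in 4 of the 8 chosen transcripts (COL6A3, COL8A1, COL12A1 and COL14A1), against 53.2% of 12916 tested coding genes. The coding sequences were long. COL6A3, COL12A1 and COL7A1 encode 3177, 3063 and 2944 codons, COL14A1 and COL16A1 encode 1796 and 1604, COL6A1 and COL6A2 encode 1028 and 1019, and COL8A1 encodes 744.

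All coordinates are on GRCh38, with gene models of GENCODE release 29. COL6A1 lies at chr21:45981737-46005050 and COL6A2 near it at chr21:46098097-46132849, both on the plus strand. COL6A3 lies at chr2:237324003-237414375 on the minus strand. COL7A1 (chr3:48564073-48595267, minus strand) and COL8A1 (chr3:99638475-99799226, plus strand) share a chromosome. COL12A1 lies at chr6:75084326-75206051 on the minus strand and COL16A1 at chr1:31652247-31704319 on the minus strand. A microRNA gene, MIR711, lies within COL7A1 and had a count of 0 in every library. COL16A1 overlaps an antisense gene, and reads of such a pair cannot be told apart without strand.

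Libraries held 18043714 to 24590030 counts. Between 7.12% and 17.5% of polysomal counts and 3.88% and 4.21% of total counts fell in mitochondrially encoded genes, with scramble polysomal replicate 1 the low one of the polysomal set. The median count came from a transcript of 1604 to 1775 nt in polysomal libraries and of 2737 to 3080 nt in total libraries. EIF4G2 itself stood at 244.0 and 334.6 CPM in knockdown and 875.3 and 877.0 CPM in scramble polysomes, and at 293.4 and 327.2 CPM in knockdown and 793.6 and 785.2 CPM in scramble total RNA. CPM are depth-scaled counts, taken here relative to the library total times its TMM factor. The log2 fold change of EIF4G2, knockdown over scramble, was -1.60 ± 0.18 (SE) in polysomal RNA (edgeR quasi-likelihood test, Benjamini-Hochberg adjusted p = 0.0276) and -1.35 ± 0.18 in total RNA (adjusted p = 0.0504). The polysomal call was lost in 5 of the 8 fits that left out 1 library (adjusted p = 0.102 to 0.224 in edgeR, log2 fold change -1.66 to -1.42), those without either knockdown total library, either scramble polysomal library or knockdown polysomal replicate 1. In total RNA EIF4G2 passed in 4 of 15 alternative settings. These were DESeq2 (adjusted p = 4.05e-10), and edgeR without the filter (3.84e-10), with the total libraries alone (0.0350) and with a length trend removed (0.0448). It did not pass in the other 11. Among those were edgeR with a replicate block (0.0664) and every fit that left out 1 library (log2 fold change -1.43 to -1.27). Fibroblast markers, 9 of 10 of which passed the filter, summed to 6273 to 6928 CPM in knockdown and 6001 to 6886 CPM in scramble polysomes, and to 5975 to 6180 CPM in knockdown and 5428 to 5517 CPM in scramble total RNA. Endothelial markers, 5 of 8 of which passed, summed to 130 to 140 CPM in knockdown and 113 to 129 CPM in scramble polysomes, and to 41.9 to 53.0 CPM in knockdown and 38.1 to 42.9 CPM in scramble total RNA, with no marker at 0 in every library. The cardiomyocyte genes MYH6 and MYH7 and the leukocyte gene CD3E were at 0 in every library, and the whole cardiomyocyte list reached at most 1.15 CPM. Epithelial markers, 6 of 8 of which passed the filter, summed to 2240 to 2271 CPM in knockdown and 3139 to 3206 CPM in scramble polysomes, with ESRP1 at 0. In total RNA they summed to 1183 to 1435 CPM in knockdown and 1385 to 1413 CPM in scramble cells, which overlapped. Mural markers, 5 of 8 of which passed, summed to 78.7 to 94.9 CPM in knockdown and 107 to 143 CPM in scramble polysomes, and to 385 to 443 CPM in knockdown and 462 to 480 CPM in scramble total RNA, with ABCC9 and MYH11 at 0. The fibroblast list includes COL1A1 and COL1A2, which also stand in the list of fibrillar collagens, and a sum does not show the direction of each marker. The part of these markers in the collagen values was not tested.

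The collagen mRNAs were scarce in polysomes in both kinds of cell. The 8 genes together took 0.00695% ± 0.000722 of counts in knockdown polysomes and 0.00830% ± 0.00225 in scramble polysomes, against 0.166% ± 0.0370 in knockdown and 0.153% ± 0.00580 in scramble total RNA (SD, n = 2 libraries each). These are shares of raw counts without the TMM factors that enter the fold changes. COL8A1 and COL12A1 held the most of these counts in every group. In knockdown cells 7 of the 8 were called lower in polysomal than in total RNA, where 34.1% of all tested genes were called lower. In scramble cells all 8 were called lower, where 33.7% of tested genes were, and 7 members were lower in both kinds of cell, as were 29% of tested genes. The median log2 fold change of the members, polysomal over total RNA, was -3.35 in knockdown and -2.89 in scramble cells, while the median of all tested genes was -0.16 and -0.17. In libraries made from whole cultures, fewer cells of a type and less RNA per cell cannot be told apart. Each value is relative to its own library and is not an absolute amount of mRNA on ribosomes. Both polysomal libraries lay below both total libraries for 8 of 8 members in knockdown and 8 of 8 in scramble cells, against 44.9% and 46.1% of tested genes.

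**Figure D1:**
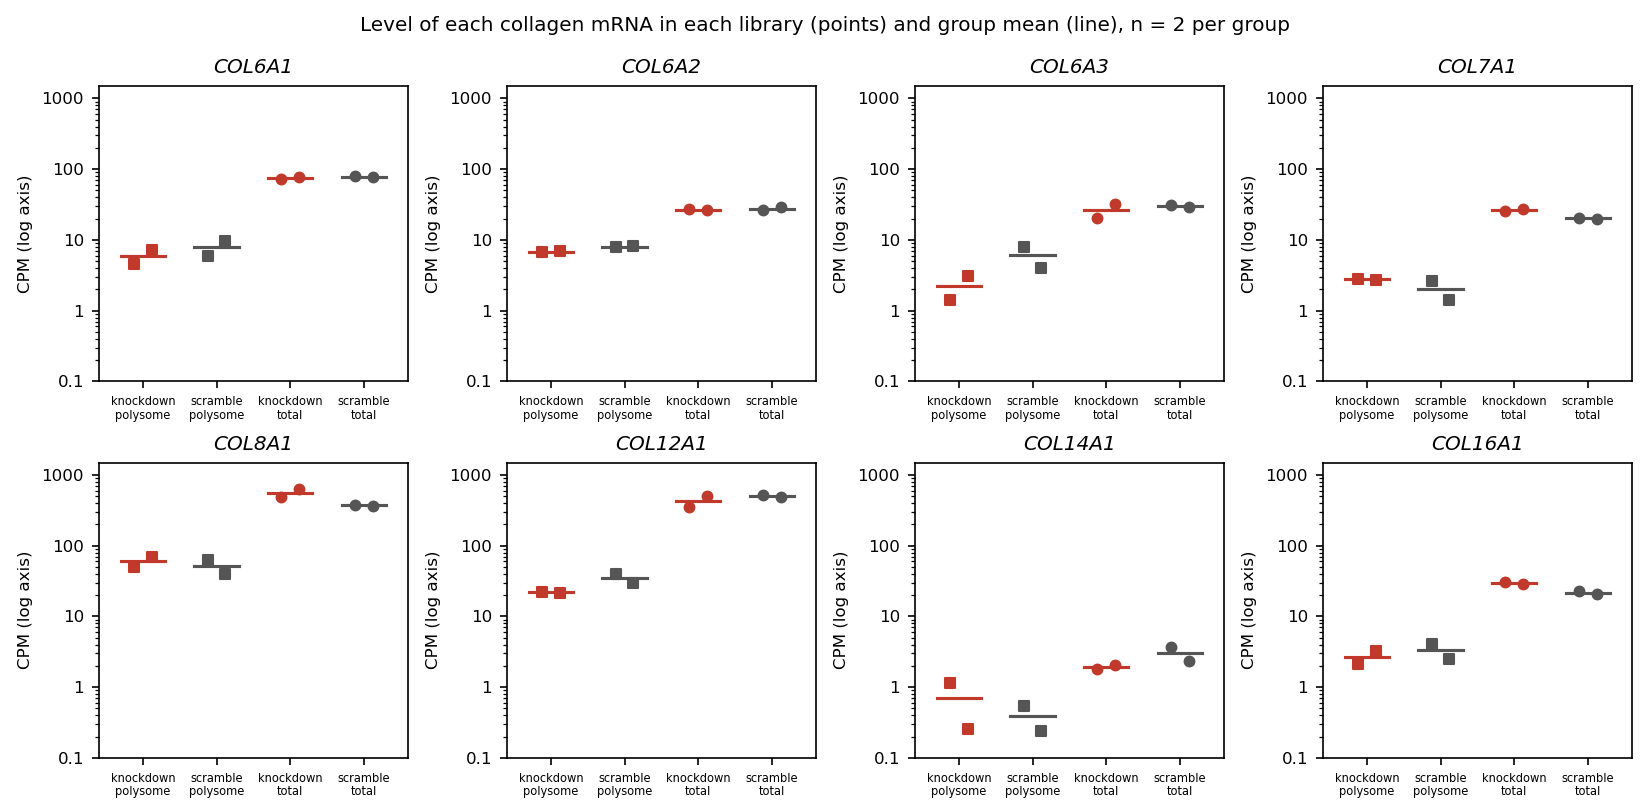
CPM of each of the 8 collagen mRNAs (log axis) in each library, with knockdown in red and scramble in grey, squares for polysomal and circles for total RNA, and a line at the mean of 2 libraries. Every polysomal library lies below every total library for each of the 8 genes, and COL14A1 is the lowest throughout.

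COL6A1 and COL6A2 encode chains of collagen VI of nearly equal length. Per library, COL6A1 stood above COL6A2 in total RNA, while their polysomal ranges overlapped. COL6A1 was at 4.59 and 7.30 CPM in knockdown polysomes against 73.4 and 77.7 CPM in knockdown total RNA. It was at 6.01 and 9.74 CPM in scramble polysomes against 79.2 and 77.4 CPM in scramble total RNA. The polysomal values overlapped between the hairpins and lay far below the total values. The log2 fold change, polysomal over total RNA, was -3.68 ± 0.26 (SE) in knockdown cells (edgeR adjusted p = 1.30e-06) and -3.32 ± 0.25 in scramble cells (1.71e-06).

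COL6A2 was at 6.68 and 6.96 CPM in knockdown polysomes against 27.8 and 26.1 CPM in knockdown total RNA. In scramble cells its level was 7.97 and 8.08 CPM in polysomes against 26.5 and 29.03 CPM in total RNA. Replicates lay close together, and the gap between fractions was the smallest among the 7 members called in both kinds of cell. Its log2 fold change was -1.98 ± 0.19 in knockdown cells (edgeR adjusted p = 6.35e-06) and -1.79 ± 0.18 in scramble cells (9.24e-06), which put its polysomal level at 25.4% and 28.9% of its total level.

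COL6A3 encodes the largest collagen VI chain, whose end is cut off as the signalling fragment endotrophin. It was at 1.42 and 3.06 CPM in knockdown polysomes against 20.2 and 32.2 CPM in knockdown total RNA. It was at 8.07 and 3.98 CPM in scramble polysomes against 31.4 and 29.2 CPM in scramble total RNA. Scramble polysomal replicate 1, the library with the low mitochondrial share, held the highest of the 4 polysomal values. Polysomal over total RNA was -3.58 ± 0.42 on the log2 scale in knockdown cells (edgeR adjusted p = 2.68e-05) and -2.32 ± 0.37 in scramble cells (2.22e-04). Without scramble polysomal replicate 1 the value in scramble cells was -3.03.

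The balance among collagen VI chains was read within each library as the log2 ratio of counts per transcript length, which needs no scaling between libraries. COL6A1 over COL6A2 was -0.83 and -0.22 in knockdown polysomes and -0.70 and -0.02 in scramble polysomes, against 1.11 and 1.28 in knockdown total RNA and 1.29 and 1.12 in scramble total RNA. All 4 polysomal libraries lay below 0 and all 4 total libraries above 1. The transcript lengths used were 4238 nt for COL6A1 and 3461 nt for COL6A2. In raw counts COL6A1 exceeded COL6A2 in knockdown polysomal replicate 2 (86 against 82) and scramble polysomal replicate 2 (164 against 136). The sign in those libraries therefore depends on the transcripts chosen, while the difference between fractions does not. The ratio averaged -0.44 ± 0.38 in polysomal and 1.20 ± 0.10 in total libraries (SD, n = 4 each), a difference of -1.64 on the log2 scale. The 2-sided exact permutation p was 0.0286, the smallest that 4 against 4 libraries can give, with both hairpins pooled within each fraction. After Benjamini-Hochberg adjustment over the 3 ratios it was 0.0857 and did not pass. A ratio that alone reaches the smallest p cannot pass after this adjustment, so the adjusted value does not decide. COL6A3 over COL6A2 averaged -2.74 ± 0.92 in polysomal and -1.61 ± 0.35 in total libraries (exact p = 0.0857, adjusted 0.129). COL6A3 over COL6A1 averaged -2.30 ± 0.94 in polysomal and -2.81 ± 0.27 in total libraries (exact p = 0.343). The wide spread of both COL6A3 ratios in polysomes included scramble polysomal replicate 1, where COL6A3 over COL6A1 was -0.92, against -2.63 in replicate 2.

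**Figure D2:**
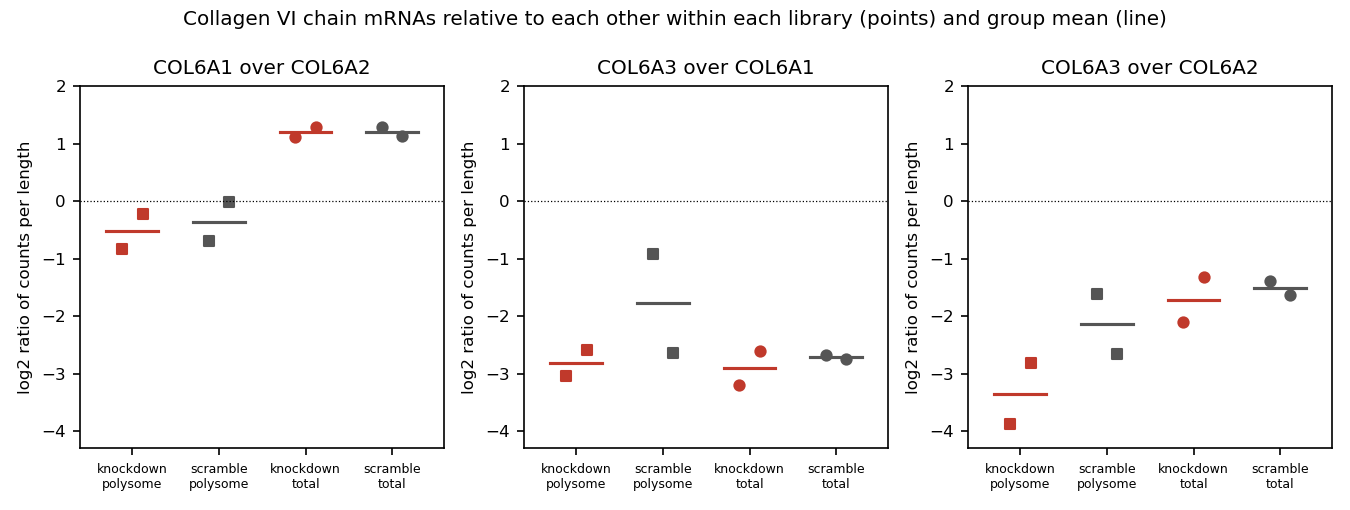
Log2 ratio of counts per transcript length between pairs of collagen VI chain mRNAs within each library (points), with the mean of each group (line), for knockdown (red) and scramble (grey) polysomes (squares) and total RNA (circles). COL6A1 over COL6A2 is below 0 in all 4 polysomal libraries and above 1 in all 4 total libraries. The position relative to 0 depends on the transcript lengths used.

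COL12A1 encodes a long fibril-associated collagen and had the largest gap between fractions of the 8 genes in both kinds of cell. It was at 22.4 and 21.7 CPM in knockdown polysomes against 351.4 and 506.5 CPM in knockdown total RNA. In scramble cells it was at 40.3 and 30.1 CPM in polysomes against 522.6 and 482.7 CPM in total RNA. Its polysomal level was 5.15% of its total level in knockdown and 6.996% in scramble cells. On the log2 scale polysomal over total RNA was -4.28 ± 0.23 in knockdown cells (edgeR adjusted p = 4.30e-07) and -3.84 ± 0.22 in scramble cells (6.49e-07).

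COL16A1, a fibril-associated collagen, was at 2.16 and 3.23 CPM in knockdown polysomes against 30.3 and 28.3 CPM in knockdown total RNA. It was at 4.12 and 2.50 CPM in scramble polysomes against 22.7 and 20.7 CPM in scramble total RNA. The polysomal values overlapped between hairpins, while both total values were higher in knockdown cells. The log2 fold change, polysomal over total RNA, was -3.46 ± 0.29 in knockdown cells (edgeR adjusted p = 2.88e-06) and -2.71 ± 0.27 in scramble cells (8.34e-06).

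COL14A1 is close in structure to COL12A1 and had the lowest counts of the 8. Its raw counts were 17 and 3 in knockdown and 10 and 4 in scramble polysomal libraries, against 58 and 63 in knockdown and 110 and 63 in scramble total libraries. That is 1.15 and 0.255 CPM in knockdown and 0.542 and 0.238 CPM in scramble polysomes, against 1.82 and 2.08 CPM in knockdown and 3.67 and 2.35 CPM in scramble total RNA. All polysomal values were below all total values, and the single library with 17 counts set much of the spread. Polysomal over total RNA was -2.92 ± 0.68 on the log2 scale in scramble cells (edgeR adjusted p = 0.00334). In knockdown cells it was -1.42 ± 0.66 and did not pass (adjusted p = 0.0799), and without knockdown polysomal replicate 1 it was -3.005 (adjusted p = 0.00949). It also passed in edgeR with library totals only (-2.45, adjusted p = 0.00801) and without the filter (-1.60, 0.0202).

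COL7A1 forms anchoring fibrils that fasten basement membranes to the matrix below. It was at 2.84 and 2.72 CPM in knockdown polysomes against 25.3 and 27.7 CPM in knockdown total RNA. It was at 2.60 and 1.43 CPM in scramble polysomes against 20.2 and 20.0 CPM in scramble total RNA. Knockdown values were the higher ones in both fractions. The log2 fold change, polysomal over total RNA, was nearly the same in knockdown (-3.25 ± 0.27, edgeR adjusted p = 3.06e-06) and scramble cells (-3.31 ± 0.27, 2.66e-06).

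COL8A1, a short-chain collagen of vessel walls and injured tissue, led the 8 in CPM per kb in every group. It was at 50.6 and 69.1 CPM in knockdown polysomes against 492.4 and 623.1 CPM in knockdown total RNA. It was at 62.2 and 40.1 CPM in scramble polysomes against 377.2 and 368.5 CPM in scramble total RNA. The total values of the hairpins did not overlap and the polysomal values did. The log2 fold change, polysomal over total RNA, was -3.22 ± 0.24 in knockdown cells (edgeR adjusted p = 1.79e-06) and -2.86 ± 0.24 in scramble cells (2.84e-06).

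**Figure D3:**
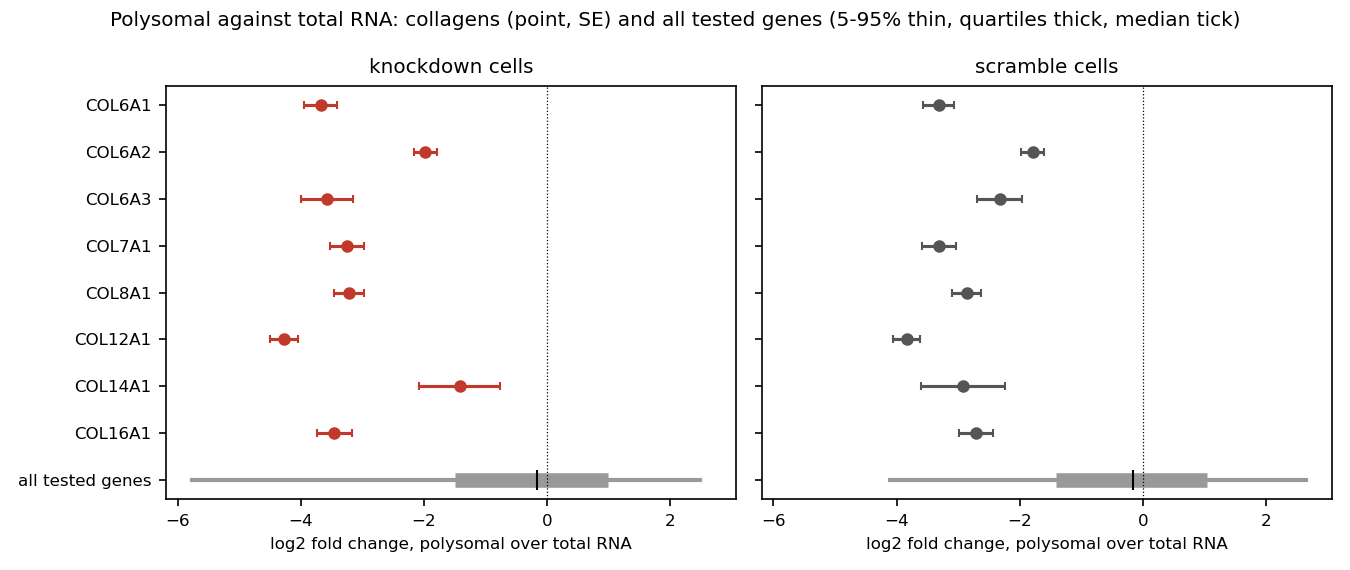
Log2 fold change of polysomal over total RNA for each collagen (point, with its SE as a bar) in knockdown (left) and scramble cells (right), above the spread of all 16228 tested genes (thin line 5% to 95%, thick line quartiles, tick median). COL12A1 lies lowest at -4.28 and -3.84, and COL6A2 is at -1.98 and -1.79.

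The order of the levels per transcript length differed between fractions. In total RNA COL8A1 led with 97.8 CPM per kb in knockdown and 65.4 in scramble cells, followed by COL12A1 (36.6 and 42.9), COL6A1 (17.8 and 18.5), COL6A2 (7.78 and 8.03) and COL16A1 (5.12 and 3.79). COL7A1 (2.85) and COL6A3 (2.44) overlapped in knockdown total RNA and COL14A1 was last. In scramble total RNA COL6A3 (2.82) stood above COL7A1 (2.17) without overlap. In polysomes COL8A1 again led with 10.5 CPM per kb in knockdown and 8.97 in scramble cells, but COL6A2 (1.97 and 2.32) stood above COL6A1 (1.40 and 1.86). COL6A2 also stood above COL12A1 (1.88) in knockdown polysomes and below it (2.9995) in scramble polysomes. Neighbours whose libraries overlapped in polysomes were COL6A3 and COL14A1 in knockdown cells, and COL16A1 and COL6A3 in scramble cells.

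Long coding sequences went with low polysomal values among all genes, and most of the collagens are long. Over 12916 tested coding genes, Spearman's rho between coding length and the log2 fold change of polysomal over total RNA was -0.583 in knockdown and -0.609 in scramble cells, as a description across genes of the same libraries. The median coding length was 5100 nt in the 8 members and 1404 nt in tested coding genes. COL8A1 had the lowest percentile within its length class. The class of 2000 to 3000 nt had a median of -0.93 in knockdown and -0.87 in scramble cells, and COL8A1 was at percentile 6.69 and 7.31 of it. COL6A1 was at percentile 8.45 in knockdown and 8.72 in scramble cells of the class of 3000 to 4500 nt, and COL6A2, in the same class, at 38.6 and 43.9. COL12A1 was at percentile 14.6 and 17.4 of the 350 genes of 6000 nt or more, and COL7A1 at 34.3 and 30.0. COL6A3, in that same class, was at percentile 25.7 in knockdown and 67.4 in scramble cells. With a smooth trend on transcript length removed from the counts, COL6A1 was at -2.82 in knockdown and -2.49 in scramble cells, COL12A1 at -2.52 and -2.11, COL8A1 at -2.01 and -1.68, and COL6A2 at -1.40 and -1.26, and each still passed. COL7A1 (-1.65 and -1.72) and COL16A1 (-2.27 and -1.52) passed as well. In scramble cells COL6A3 (-0.66, edgeR adjusted p = 0.0954) and COL14A1 (-1.62, 0.0602) no longer did, while in knockdown cells COL6A3 (-1.87) passed and COL14A1 (-0.13) did not.

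**Figure D4:**
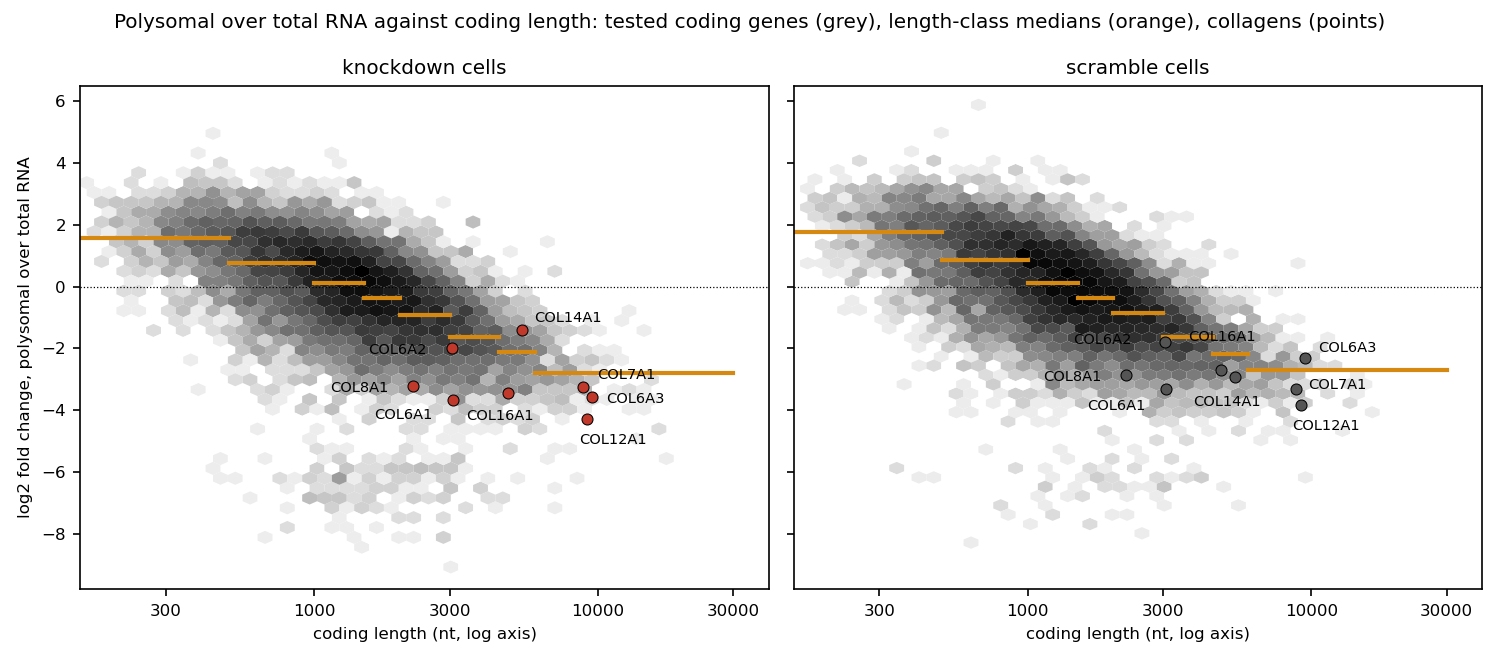
Log2 fold change of polysomal over total RNA against coding length (log axis) for tested coding genes (grey, darker where more genes lie), with the median of each length class (orange) and the 8 collagens (points), in knockdown (left) and scramble cells (right). COL6A1, COL6A2, COL7A1, COL8A1, COL12A1 and COL16A1 lie below the median of their class in both panels. COL14A1 lies above it in the knockdown panel and COL6A3 in the scramble panel. Outside the axes lie 26 genes in the knockdown and 23 in the scramble panel.

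The knockdown was set against scramble in total RNA, and no collagen passed. EdgeR called 0 of the 8 members and 0% of all tested genes, DESeq2 called 0 members (0.16% of tested genes), and DESeq2 gave no adjusted p for COL14A1. Below an unadjusted edgeR threshold of 0.05 there was 1 member, COL8A1, where 3.68% of tested genes were. Its log2 fold change was 0.58 ± 0.22 (SE, edgeR adjusted p = 1). Leaving out knockdown total replicate 2 gave 0.40 for COL8A1. Both knockdown libraries were above both scramble libraries for COL7A1, COL8A1 and COL16A1, 3 of 8 members against 24.8% of tested genes, and below them for COL14A1, 1 of 8 against 23.1%. The log2 fold changes were 0.40 ± 0.23 for COL7A1, 0.43 ± 0.24 for COL16A1 and -0.63 ± 0.57 for COL14A1. Those of the collagen VI chains were -0.05 ± 0.22 for COL6A1, -0.04 ± 0.17 for COL6A2 and -0.21 ± 0.33 for COL6A3, and that of COL12A1 was -0.23 ± 0.20.

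In polysomal RNA edgeR again called 0 of the 8 members, and 0.0123% of all tested genes. Below an unadjusted edgeR p of 0.05 were 2 members, COL6A3 and COL12A1, against 13.3% of tested genes. COL6A3 had a log2 fold change of -1.47 ± 0.44 (edgeR adjusted p = 0.226). DESeq2 called COL6A3 alone of the 8 (adjusted p = 0.0492), against 1.4% of tested genes. Both knockdown libraries lay below both scramble libraries, and the estimate was -0.89 without scramble polysomal replicate 1 and -2.16 without knockdown polysomal replicate 2. COL12A1 had a log2 fold change of -0.67 ± 0.21 (edgeR adjusted p = 0.244), and DESeq2 gave an adjusted p of 0.108. Without scramble polysomal replicate 1 it was -0.47. Scramble polysomal replicate 1 had 7.12% of counts in mitochondrially encoded genes, against 14.5% to 17.5% in the other 3 polysomal libraries, and the part of this in the result was not tested beyond leaving the library out.

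Knockdown polysomal libraries lay below scramble ones without overlap for 3 of 8 members, COL6A2, COL6A3 and COL12A1, against 18.5% of tested genes. They lay above for 1 of 8, COL7A1, against 15.5%. The remaining log2 fold changes in polysomal RNA did not pass and were -0.42 ± 0.27 for COL6A1, -0.23 ± 0.19 for COL6A2, 0.46 ± 0.31 for COL7A1, 0.22 ± 0.23 for COL8A1, 0.87 ± 0.76 for COL14A1 and -0.32 ± 0.31 for COL16A1. With 2 libraries a group, changes of this size were within reach of the spread between replicates, and a p that misses the threshold does not show that the levels were equal.

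The polysome-to-total ratio asks whether polysomal RNA differed with the hairpin beyond total RNA, as the interaction of hairpin and fraction. It was called for 0 of the 8 members and 0% of tested genes by edgeR, and DESeq2 called 0 members (0.0246% of tested genes). COL6A3 alone of the 8 was below an unadjusted edgeR p of 0.05, where 6.27% of tested genes were, with a log2 difference of -1.26 ± 0.55 (edgeR adjusted p = 0.776). Without scramble polysomal replicate 1 it was -0.66. COL16A1 was at -0.75 ± 0.39, and ran from -1.11 without scramble polysomal replicate 2 to -0.34 without scramble polysomal replicate 1. Its polysomal value was 0.069 without that last library. The other values were -0.36 ± 0.35 for COL6A1, -0.19 ± 0.26 for COL6A2, 0.06 ± 0.38 for COL7A1, -0.36 ± 0.32 for COL8A1, -0.44 ± 0.29 for COL12A1 and 1.501 ± 0.95 for COL14A1.

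**Figure D5:**
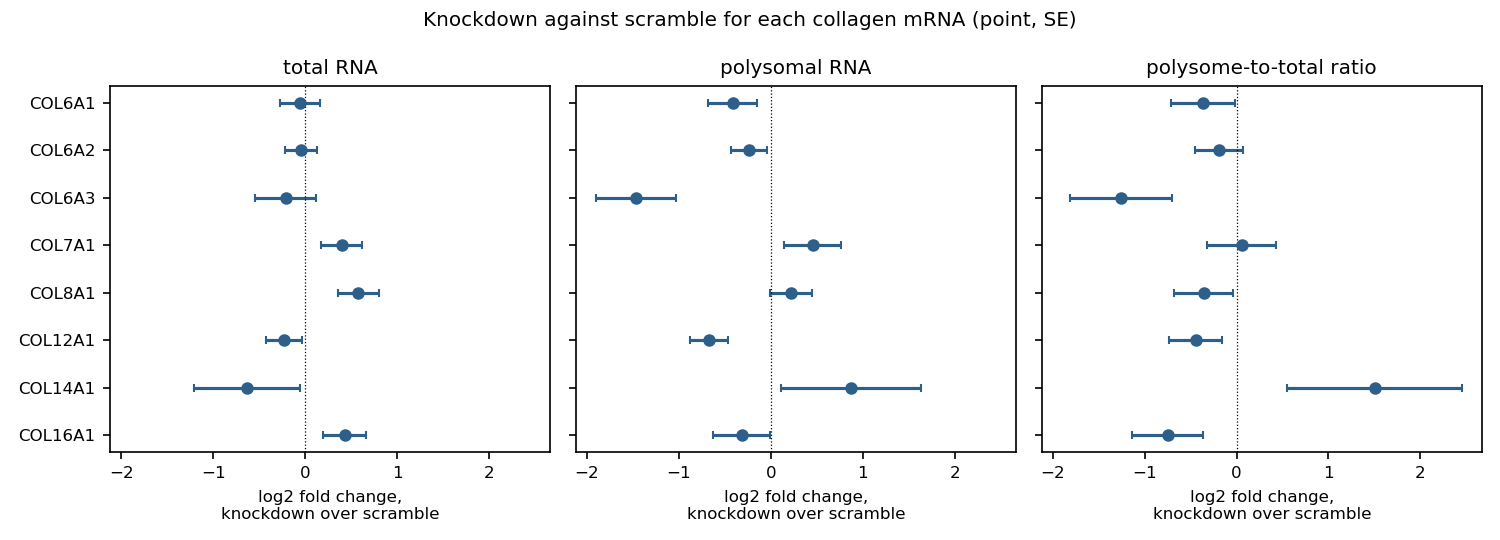
Log2 fold change of knockdown over scramble for each collagen mRNA (point, with its SE as a bar) in total RNA, then in polysomal RNA and then as the polysome-to-total ratio. COL8A1 lies at 0.58 in total RNA and COL6A3 at -1.47 in polysomal RNA, and no value passed the edgeR test.

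Receptors and binding partners of collagen VI did not share one direction between fractions. Of the 25 listed, 20 were tested, and in knockdown cells 3 were called higher and 10 lower in polysomal than in total RNA, with a median of -1.01, against 28.9% higher, 34.1% lower and a median of -0.16 over all tested genes. In scramble cells 3 were called higher and 11 lower, with a median of -0.92, against 29.7%, 33.7% and -0.17. CSPG4, a proteoglycan receptor for collagen VI, fell to 4.18 ± 0.569 CPM in knockdown polysomes against 187 ± 27.0 CPM in knockdown total RNA (SD, n = 2 each), and its log2 fold change was -5.49 in knockdown and -4.61 in scramble cells. HSPG2, the basement membrane proteoglycan perlecan, was at -6.36 ± 0.69 (SE) in knockdown and -5.94 ± 0.63 in scramble cells. Its polysomal levels were low, at 1.37 ± 0.222 CPM (SD) in knockdown and 2.62 ± 3.04 CPM in scramble cells. With 1 library left out its value in scramble cells ran from -8.53 to -5.17. MMP14, a membrane-bound matrix protease, was at -3.48 in knockdown and -3.18 in scramble cells. TGFBI, a secreted protein that binds collagen VI, was higher in polysomes, at 5884 ± 1646 CPM in knockdown polysomes against 1215 ± 0.242 CPM in knockdown total RNA, with a log2 fold change of 2.28 ± 0.23 in knockdown and 2.59 ± 0.24 in scramble cells. In the knockdown comparisons edgeR called none of the 20: at an unadjusted p under 0.05 there were 3 for total RNA, 8 for polysomal RNA and 3 for the ratio, and DESeq2 called 1, 3 and 0. Of all tested genes 3.68%, 13.3% and 6.27% were below that unadjusted threshold, and DESeq2 called 0.16%, 1.4% and 0.0246%.

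Other collagens lay low in polysomes as well. Of 10 tested fibrillar collagens, 8 were called lower in polysomal than in total RNA in knockdown and 7 in scramble cells, against 34.1% and 33.7% of all tested genes. The list's medians were -2.997 and -2.07, against -0.16 and -0.17 over all tested genes. COL3A1 was at -4.21 ± 0.54 in knockdown and -3.46 ± 0.49 in scramble cells, COL5A1 at -3.08 ± 0.22 and -2.60 ± 0.21, and COL5A2 at -2.92 ± 0.17 and -2.66 ± 0.17. COL1A2, a chain of the main fibril collagen, was at -2.74 ± 0.34 in knockdown and -1.55 ± 0.32 in scramble cells, and with the length trend removed it no longer passed in scramble cells (-0.43, edgeR adjusted p = 0.268). Of 6 tested basement membrane collagens, 5 were called lower in knockdown and 6 in scramble cells, with medians of -2.82 and -2.53, beside the same shares and medians over all genes. In knockdown and scramble cells COL18A1 was at -3.65 and -3.51, COL4A5 at -3.29 and -3.19, COL4A2 at -2.35 and -1.88, and COL4A1 at -0.68 and -0.59. COL4A1 changed sign with the length trend removed, to 0.67 in knockdown (edgeR adjusted p = 0.00722) and 0.74 in scramble cells (0.00415). No gene of either list was called by edgeR between knockdown and scramble, while at an unadjusted p under 0.05 there were 0, 5 and 5 fibrillar and 0, 2 and 0 basement membrane collagens in total RNA, polysomal RNA and the ratio, where 3.68%, 13.3% and 6.27% of all tested genes were. DESeq2 called 2 fibrillar collagens, in polysomal RNA, where it called 1.4% of all tested genes.

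Genes with the pattern most like that of collagen VI were found by the root mean square difference of centred log2 CPM over the 8 libraries, among 12908 coding candidates. For the mean of the collagen VI chains these were KIAA0100 (0.0846), SETD5 (0.110), UHRF1 (0.117), EXTL3 (0.120) and MTR (0.124). KIAA0100 had a log2 fold change of polysomal over total RNA of -2.83 in knockdown and -2.52 in scramble cells. For COL12A1 they included MCM3AP (0.144), EIF3A (0.153), ADCY6 (0.154) and ABCA7 (0.162), with MCM3AP at -4.26 in knockdown and -3.86 in scramble cells. None of these is a collagen, but the 8 members were left out of the candidates and could not appear.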

How the data were processed

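The authors deposited whole-number counts per gene symbol, without normalization, for 8 libraries. Per the submitters' processing notes, bcl2fastq 2.19.0, Trimmomatic 0.36, HISAT2 2.1.0, Subread 2.0.1 with featureCounts, DESeq2, R 4.1.2 and GRCh38 were used, with no order or options given. Annotation, strand setting and multiple matches are not given in the sources used here. PolyA enrichment and paired-end sequencing are named in the series' design text, which speaks of triplicates. The 2 libraries per group are those analysed here.

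Counts were filtered (filterByExpr), scaled by TMM and fitted in edgeR 4.0.16 (R 4.3.3, limma 3.58.1) by a robust quasi-likelihood model over all 8 libraries with group means, leaving 4 residual degrees of freedom. The Benjamini-Hochberg adjustment ran over all 16228 tested genes, and the threshold was 0.05. Standard errors were derived from the log2 fold change and the square root of its F statistic. Alternatives were DESeq2 1.42.0, other scalings, no filter, a length trend, a replicate block, fewer libraries in the fit, and leaving out each library. The fits were also run on simulated counts with planted changes, built around the scramble total means without the length shift between fractions. No result given here rests on that run. Log2 CPM used a prior count of 2. TMM factors were 1.37 to 1.45 in total and 0.653 to 0.751 in polysomal libraries.

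The members and lists were chosen with earlier results of these data known. Named genes are the members, EIF4G2 and up to 4 called genes per list with the largest fold change among those with a mean log2 CPM of at least 3. Lengths and sequences are from GENCODE 29, 1 coding transcript per gene, and 90.6% of tested symbols matched. Coding genes are GENCODE's protein-coding type, since a table of proteins was not used here. Some genes are not reported here.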

Additional observations from a re-analysis of the deposited data

How the results depend on the processing

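All 8 members kept a negative polysomal-over-total value in both kinds of cell under every setting run. Scaling by library totals only moved the all-gene median to -1.22 in knockdown and -1.16 in scramble cells, and the members' median to -4.41 and -3.88. Between knockdown and scramble, DESeq2 called 26 genes for total RNA, 228 for polysomal RNA and 4 for the ratio, against 0, 2 and 0 by edgeR, with 1 member (COL6A3) for polysomal RNA. Without a filter these were 38, 502 and 64, with 2 members for polysomal RNA, COL6A3 (edgeR adjusted p = 1.85e-04) and COL12A1 (0.0137). The length trend gave 5 genes for total and 7 for polysomal RNA, the fraction's own libraries 10 for total RNA, and library totals 1 for polysomal RNA. Leaving out single libraries gave 0 to 183 genes for polysomal RNA, the most without knockdown polysomal replicate 2, and 0 to 2 for the ratio.

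Among members and EIF4G2, the values that changed sign had not passed before the change. The knockdown values with 1 library left out ran from -0.11 to 0.017 for COL6A2, -0.59 to 0.087 for COL6A3 and -0.52 to 0.0091 for COL12A1 in total RNA, and from -0.13 to 0.55 for COL8A1, -0.66 to 1.57 for COL14A1 and -0.699 to 0.069 for COL16A1 in polysomal RNA. For the ratio they ran from -0.35 to 0.56 for COL7A1, which also changed sign without knockdown total replicate 1 (-0.0061), and from -0.0075 to 2.22 for COL14A1. COL8A1 in polysomal RNA was -0.082 without knockdown polysomal replicate 2. With library totals only, the COL7A1 ratio was -0.0088 and EIF4G2, polysomal over total RNA, was -0.85 in scramble cells (edgeR adjusted p = 0.00109). EIF4G2 in knockdown cells was 0.69 with the length trend removed (0.00532) and -0.47 to 0.011 with 1 library left out. COL4A1 with the length trend removed was 0.67 in knockdown and 0.74 in scramble cells. The cause was not tested.

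Groups share replicate numbers, but no label pairs the libraries, and correlations of replicate differences between groups ran from -0.0921 to 0.0264. With a replicate block edgeR called 0 genes for total RNA, 3 for polysomal RNA and 0 for the ratio, and 0 members in each. COL6A3 in polysomal RNA was then -1.48, and 7 members in knockdown and 8 in scramble cells were still called between fractions. Low counts limit COL14A1, which had 3 to 17 counts in polysomal libraries.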

Other observations

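Genes that fold, modify and export collagen chains went both ways between fractions, as all tested genes did. All 30 listed were tested, and 10 were called higher and 13 lower in polysomal than in total RNA in knockdown cells, against 10 and 11 in scramble cells (edgeR), with medians of -0.14 and 0.20 beside -0.16 and -0.17 over all tested genes. Of all tested genes 28.9% were called higher and 34.1% lower in knockdown cells, and 29.7% and 33.7% in scramble cells. PPIB, an isomerase of the endoplasmic reticulum that helps collagen chains fold, was at 572 ± 24.4 CPM in knockdown polysomes against 175 ± 17.4 CPM in knockdown total RNA (SD, n = 2 each), with a log2 fold change of 1.71 ± 0.15 in knockdown and 1.81 ± 0.15 in scramble cells. KDELR3, a receptor that returns proteins to the endoplasmic reticulum, was at 1.89 and 1.68, and SAR1B, a small GTPase of export vesicles, at 1.498 and 1.35. TRAM2, a translocon protein linked to collagen synthesis, was lower in polysomes, at 38.2 ± 1.49 CPM in knockdown polysomes against 389 ± 39.8 CPM in knockdown total RNA, with a log2 fold change of -3.35 in knockdown and -3.003 in scramble cells. Between knockdown and scramble edgeR called none of the 30. At an unadjusted p under 0.05 there were 3 for total RNA, 5 for polysomal RNA and 1 for the ratio, and DESeq2 called 3, in polysomal RNA, beside 3.68%, 13.3% and 6.27% of all tested genes below the unadjusted threshold and 1.4% called by DESeq2 in polysomal RNA.

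Of 17 further collagens 5 were tested. All 5 were called lower in polysomal than in total RNA in knockdown and 3 in scramble cells (edgeR). The medians were -3.35 and -2.29, against 34.1% and 33.7% called lower and medians of -0.16 and -0.17 over all tested genes. Low counts limit this list. Mean log2 CPM was 3.95 for COL13A1 but 0.98 for COL8A2, -0.41 for COL9A2, -0.68 for COL9A3 and -1.47 for COL17A1. The knockdown median is the value of COL17A1, the lowest of these in level. COL13A1, a membrane-spanning collagen, was at 5.48 ± 0.300 CPM in knockdown polysomes against 40.4 ± 0.579 CPM in knockdown total RNA, with a log2 fold change of -2.88 ± 0.21 in knockdown and -2.29 ± 0.20 in scramble cells.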
